A study of Mus musculus with 11 samples.

Results

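Collagens and mesenchymal matrix genes were examined in RNA-seq of mouse retina at E13.5. They were taken from the count table by symbol: every gene named Col, a number, a and a number, together with Fn1, Lum, Dcn, Postn, Fbn1, Fbn2, Bgn, Sparc, Lox, Tnc, Fbln1, Fbln2 and Mfap4. The rule gave 50 genes (37 collagens and 13 other matrix genes) of 13498 in the table, and all 50 had enough reads to be tested, among 13292 genes in all. By structure they comprised 10 fibrillar collagens, 8 collagens of basement membranes, the 3 chains of type IX, 3 chains of type VI, 5 other fibril-associated (FACIT) collagens, 2 of type VIII, 4 transmembrane collagens, types VII and XXVI with 1 each, 4 adhesive or matricellular proteins, 3 small leucine-rich proteoglycans, 5 microfibril proteins and the crosslinking enzyme Lox. Col5a3, Col6a4, Col6a5, Col6a6, Col10a1, Col19a1, Col21a1 and Col28a1 were not analysed here.

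Retinas came from NMRI mice, and each library was made from total RNA of a pair of retinas after removal of ribosomal RNA. WT retinas (3 libraries) were Six3F/F, with both Six3 alleles floxed and no Cre. Six3KO retinas (3 libraries) were Six3F/F with CAGGCre-ERTM, a ubiquitously expressed Cre that tamoxifen activates. Six6KO retinas (2 libraries, after the submitters removed 1 for high duplication) were Six3F/F with Six6 null alleles from the germ line and no Cre, and DKO retinas (3 libraries) were Six3F/F with CAGGCre-ERTM and Six6 null alleles. All 4 groups shared the floxed Six3 alleles, and pregnant dams were injected with tamoxifen (0.15 mL at 20 mg/mL) at E10.5 and E11.5. Since only Six3KO and DKO carried Cre, loss of Six3 and presence of Cre cannot be told apart against WT or Six6KO. Both targeted genes encode homeodomain proteins that regulate transcription in the eye field and the early retina. Levels of the targeted genes differed from WT in the labelled direction: Six3 was at 164 to 299 counts scaled to library size (CPM) in WT, 30.3 to 75.9 in Six3KO and 56.2 to 98.1 in DKO, and Six6 at 225 to 340.1 CPM in WT, 76.8 to 131 in Six6KO and 52.8 to 99.8 in DKO.

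As background, collagens are triple-helical proteins that assemble outside the cell. Types I, III and V build the banded fibrils of connective tissue and are made mainly by fibroblasts and other mesenchymal cells, which in the embryonic eye form the neural-crest-derived mesenchyme around the optic cup. Type IV builds the network of basement membranes, such as those that line the inner surface of the retina, the pigment epithelium, the lens capsule and vessels. Types II, IX and XI form the thin fibrils of cartilage and of the vitreous, and in the eye Col2a1 and Col9a1 are made by neuroepithelium, including the margin of the optic cup that becomes the ciliary body.

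Libraries of 1 genotype differed in the RNA of markers of other tissues. Depth ran from 7807744 to 16403191 reads, and 9 retinal progenitor genes had summed levels of 2749 to 4011 CPM in DKO, 4284 to 6664 in WT, 2420.0 to 5014 in Six3KO, and 5391 and 3160.0 in Six6KO. None of the 9 was called in DKO against WT by edgeR, and 6 estimates lay below 0 (median -0.53). At an unadjusted p under 0.05, 4 were lower and 1 higher, where 7.53% and 5.47% of all genes were. Markers of the periocular mesenchyme, a list of 15 transcription factors and surface proteins with no matrix gene in it, had summed levels of 499.5 to 1024 CPM in WT, 568 to 1301 in Six3KO, 1008 and 1158 in Six6KO, and 652 to 797 in DKO. Cdh11 made up most of these sums and was at 474 to 772 CPM in every library, whereas the other 14 markers were low in all 3 DKO libraries and in WT library rh023. Among those 14, Foxc2 had no read in rh023 or in DKO rh021. On a score of mean log2 level set to 0 at the WT mean, rh023 stood at -2.19, the DKO libraries at -2.19, -1.67 and -1.99, Six3KO rh012 at -1.50, and the other 6 libraries at 0.52 to 1.96, highest in Six3KO rh026. Of the 15 markers, 14 had estimates below 0 in DKO against WT, none with an adjusted p under 0.05 in edgeR. At an unadjusted p under 0.05, 11 were lower and 1 higher (7.53% and 5.47% of all genes). A fit with this score as a covariate is given below as a description, and the part of periocular mesenchyme in the results was not tested.

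Levels are given below as TMM-scaled CPM in a fixed order: WT libraries rh016, rh023 and rh024, Six3KO rh006, rh012 and rh026, Six6KO rh007 and rh020, and DKO rh010, rh011 and rh021. Differences are log2 fold changes with the standard error of the fit. A gene was called when its Benjamini-Hochberg adjusted p over all 13292 genes in edgeR's quasi-likelihood test was under 0.05. Replicates are separate pairs of retinas.

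In DKO against WT, Col1a1 fell, none of the 50 genes rose, and the other 49 were not called, although most had estimates well below 0. In bulk tissue fewer cells of a type and less RNA per cell cannot be told apart. Over all genes tested, 0.639% were called lower and 0.655% higher in this comparison. Of the 50 estimates, 40 lay below 0, with a median of -1.73 against a median of -0.0036 over all genes. At an unadjusted p under 0.05, 24 were lower and 2 higher, where all genes gave 7.53% lower and 5.47% higher. In 17 genes every DKO library lay below every WT library (8.46% of all genes did), and in 3 genes, Col2a1, Col9a1 and Col4a5, every DKO library lay above (9.03%). With WT library rh023 left out, 36 of the 50 lay below both other WT libraries, where 17.4% of all genes did. DESeq2, run as an alternative, called 18 lower and 2 higher (3.43% and 2.3% of all genes), the 2 higher being Col2a1 and Col9a1.

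**Figure D1:**
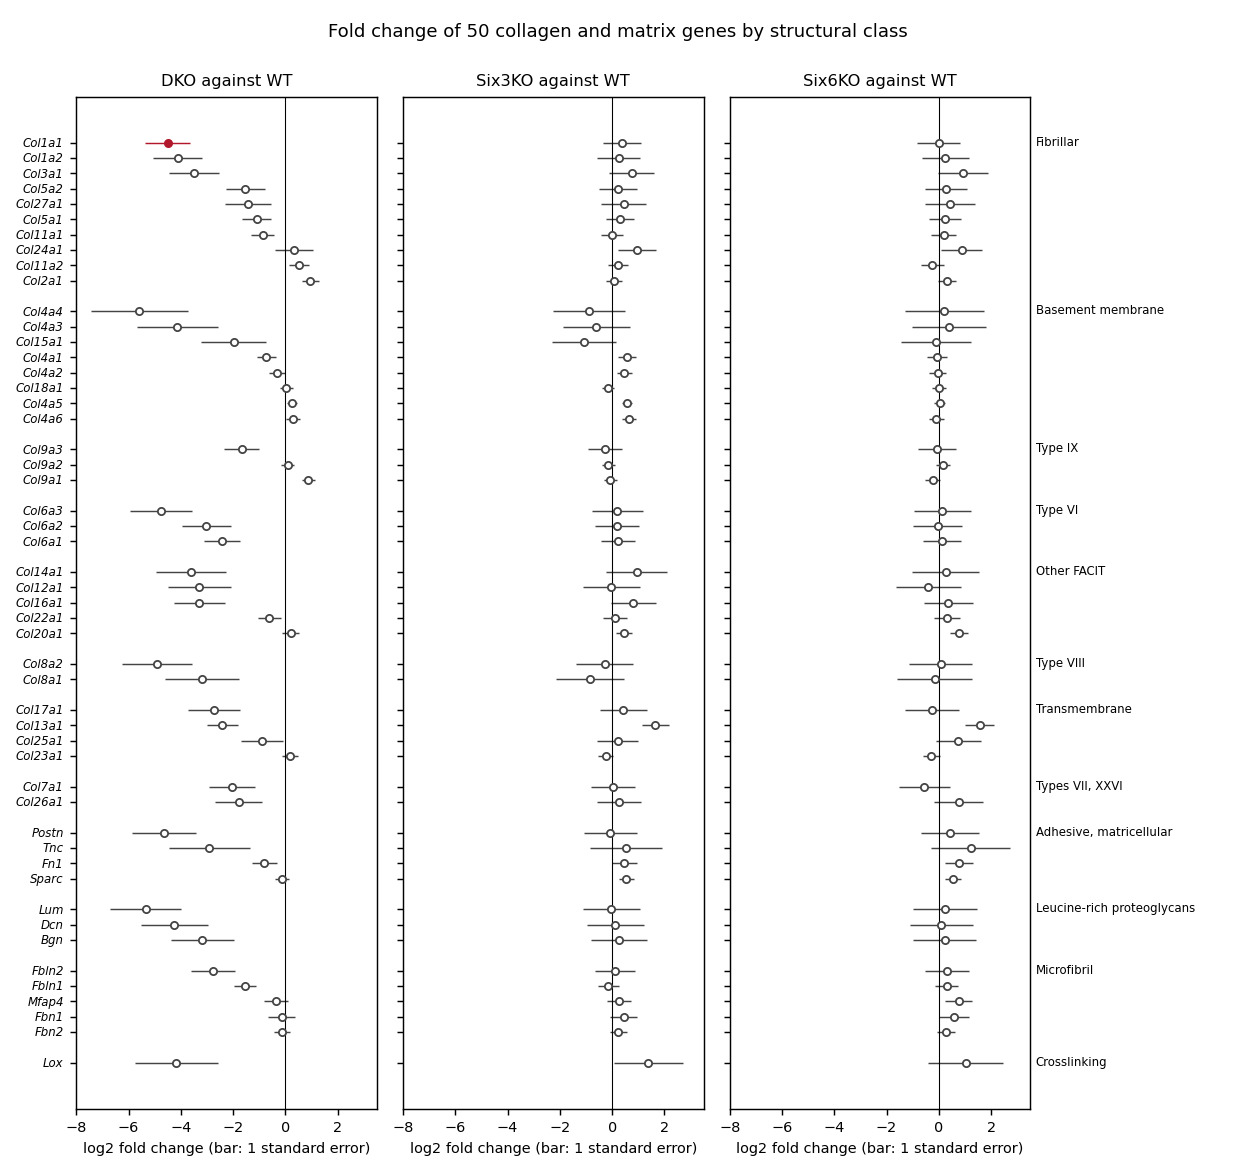
Log2 fold change (x axis) of each of the 50 genes (y axis, grouped by structural class) in DKO, Six3KO and Six6KO against WT, with bars of 1 standard error; the red point is the gene called by edgeR. In DKO the estimates spread from -5.60 (Col4a4) to 0.96 (Col2a1), whereas in the single mutants they lie between -1.07 and 1.65.

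Among the fibrillar collagens, type I and type III chains had the lowest estimates in DKO, and Col2a1 the highest. Col1a1 (chr11:94936224-94953042, GRCm38), the main chain of type I collagen, was at 258, 126 and 407 CPM in WT, 264, 124 and 633 in Six3KO, 430.3 and 92.9 in Six6KO, and 5.57, 17.6 and 11.6 in DKO. All 3 DKO libraries lay below each of the other 8, and Col1a1 fell by 4.51 ± 0.86 on the log2 scale against WT (22.7-fold lower, adjusted p = 0.0475). The call is a narrow one, since it was lost in 7 of 11 fits that left out 1 library (those without each of the WT and DKO libraries and without Six3KO rh006), with estimates of -4.94 to -4.05 and adjusted p up to 0.218. Col1a2, which encodes the second chain of the same triple helix, was at 379, 106 and 674 CPM in WT, 359, 125 and 895 in Six3KO, 674 and 244 in Six6KO, and 9.75, 31.2 and 25.5 in DKO. Its difference from WT was -4.12 ± 0.93 (adjusted p = 0.0813), and its DKO libraries too lay below all 8 others. Col3a1, the chain of type III fibrils in soft connective tissue, was at 19.5 to 35.9 CPM in DKO and 91.1 to 445 in WT (-3.51 ± 0.96, adjusted p = 0.132).

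The promoter of Col1a2, whose DKO libraries did not overlap any other (RefSeq, GRCm38.p6, chr6:4505368-4505667, plus strand, 250 bases before the annotated start and 50 after it) is shown because it holds the CCAAT motif, searched as CCAAT and its complement ATTGG, on each strand once. Capitals mark the motif, which 37.4% of all RefSeq promoters of this length hold, and 29.3% of the 41 promoter entries found for 35 of the 50 genes.
Col1a2 promoter: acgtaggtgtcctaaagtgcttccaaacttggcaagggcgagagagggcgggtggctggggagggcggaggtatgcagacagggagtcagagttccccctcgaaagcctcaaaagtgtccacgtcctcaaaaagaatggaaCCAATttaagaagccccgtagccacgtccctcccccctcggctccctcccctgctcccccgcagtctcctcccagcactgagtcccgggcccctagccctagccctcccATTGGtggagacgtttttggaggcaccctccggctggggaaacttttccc

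Type V chains, which take part in starting type I fibrils, had estimates nearer to 0. Col5a1 was -1.09 ± 0.56 and Col5a2 -1.54 ± 0.75 in DKO against WT, and neither was called (adjusted p = 0.474 and 0.446). Col11a1, a chain of type XI collagen in thin cartilage-type fibrils, was at 72.4, 27.6 and 72.4 CPM in WT, 53.0, 27.3 and 90.8 in Six3KO, 64.3 and 67.1 in Six6KO, and 33.9, 31.7 and 28.8 in DKO. The DKO values and those of WT rh023 and Six3KO rh012 formed the low end, at 27.3 to 33.9 CPM. Col2a1 (chr15:97975602-98004695), the chain of type II collagen of cartilage and vitreous, was at 89.5, 137 and 229 CPM in WT, 168, 167 and 141 in Six3KO, 240.1 and 140.0 in Six6KO, and 325, 302 and 257 in DKO. It was highest in the 3 DKO libraries, above each of the other 8, with a difference from WT of 0.96 ± 0.31 that was not called (adjusted p = 0.207). Col11a2, its partner chain in type XI fibrils, was at 10.8 to 20.2 CPM in DKO and 4.92 to 14.8 in WT (0.53 ± 0.39). Over the 10 fibrillar genes the median was -1.26, with 1 called lower, none higher, and 7 estimates below 0. Of 7 cartilage markers, 1 was analysed here: Cnmd (chondromodulin), at 1.11 to 2.31 CPM in all libraries, with -0.40 ± 0.33 in DKO against WT. The part of cartilage in the Col2a1 values was not tested.

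**Figure D2:**
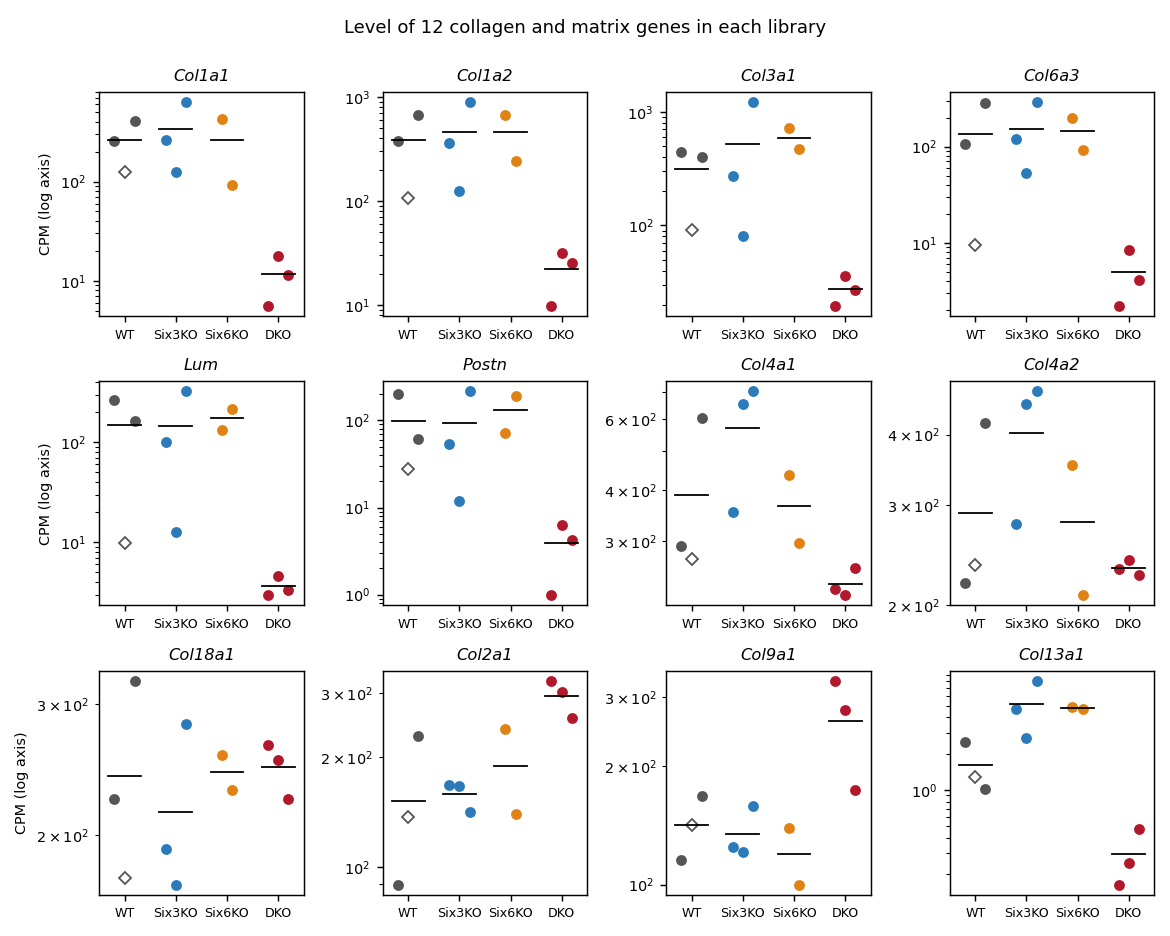
CPM on a log axis (y) of 12 genes in each library by genotype (x); each point is 1 library, the bar is the group mean and the open diamond is WT library rh023. DKO libraries lie lowest for Col1a1, Col1a2, Col3a1, Col6a3, Lum, Postn, Col4a1 and Col13a1, overlap the others for Col4a2 and Col18a1, and lie highest for Col2a1 and Col9a1.

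Collagens of basement membranes were not called in DKO. Among them were abundant chains with estimates nearer to 0, and the rare chains Col4a3 and Col4a4, which were high in 3 libraries of 3 genotypes. Col4a1, which pairs with Col4a2 in the common type IV network, was at 291, 270.2 and 604 CPM in WT, 355, 653 and 703 in Six3KO, 436 and 296 in Six6KO, and 228, 220.2 and 258 in DKO. DKO libraries lay below all others, but the estimate against WT was -0.72 ± 0.35 and was not called (adjusted p = 0.43). Col4a2 was at 219, 236 and 418 CPM in WT, 278, 454 and 477 in Six3KO, 353 and 208 in Six6KO, and 231, 239.9 and 226 in DKO. Here the DKO libraries lay inside the WT range (-0.32 ± 0.30), and the highest values of both genes were in WT rh024 and Six3KO rh012 and rh026. Those 3 were among the 4 libraries with the most lens RNA: the summed level of 10 lens markers, among them the crystallins Cryaa and Cryba1, was 1047 CPM in rh024, 19088 in rh012, 15290 in rh026 and 8371 in Six6KO rh020, against 8.40 to 219 in the other 7. The remaining lens-rich library, Six6KO rh020, had Col4a1 at 296 CPM and the lowest Col4a2 of all libraries, 208 CPM. Vessels also have a type IV basement membrane, and endothelial markers were at a summed 31.0 to 48.9 CPM in DKO, 10.52 in WT rh023 and 197 and 202 in the other WT libraries, with 10 of 10 estimates below 0 and none called. The parts of lens and vessels in these values were not tested.

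Col4a1 and Col4a2 lie head to head on chromosome 8 (chr8:11198423-11312826, minus strand, and chr8:11312805-11449287, plus strand), their exons overlap, and how strand was used in counting is unstated in the sources used here, so reads at the shared end cannot be assigned with certainty. Their RefSeq promoter windows (GRCm38.p6, chr8:11312777-11313076 and chr8:11312555-11312854), each 5′ to 3′ on its own gene's strand, are shown for that overlap: starts lie 21 bases apart, and the 78 bases present in both windows are in capitals, as complements of each other.
Col4a1 promoter: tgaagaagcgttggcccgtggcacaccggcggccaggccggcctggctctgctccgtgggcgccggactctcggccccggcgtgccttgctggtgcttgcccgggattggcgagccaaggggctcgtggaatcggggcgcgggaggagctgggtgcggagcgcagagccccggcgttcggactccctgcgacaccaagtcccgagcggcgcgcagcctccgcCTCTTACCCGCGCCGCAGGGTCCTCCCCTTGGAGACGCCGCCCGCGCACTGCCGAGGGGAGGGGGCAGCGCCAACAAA
Col4a2 promoter: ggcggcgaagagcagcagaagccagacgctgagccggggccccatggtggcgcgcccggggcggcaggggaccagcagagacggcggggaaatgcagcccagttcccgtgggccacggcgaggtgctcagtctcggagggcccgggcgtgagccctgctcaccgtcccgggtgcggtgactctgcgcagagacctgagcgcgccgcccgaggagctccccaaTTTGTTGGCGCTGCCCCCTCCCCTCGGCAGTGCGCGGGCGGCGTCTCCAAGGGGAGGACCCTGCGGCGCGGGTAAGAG

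Col4a5, an X-linked type IV chain, was at 123 to 131 CPM in DKO and 94.8 to 118 in WT, without overlap (0.25 ± 0.18, adjusted p = 0.674), and its neighbour Col4a6 differed by 0.29 ± 0.26. Col18a1, whose C-terminal fragment is endostatin, was at 223, 175 and 322 CPM in WT, 191, 171 and 282 in Six3KO, 256 and 229.9 in Six6KO, and 264, 253 and 224 in DKO. Its difference was 0.04 ± 0.24, with all 3 DKO values inside the WT range. Col4a3, a chain of the type IV network known from the kidney glomerulus, was at 23.0, 0.925 and 0.637 CPM in WT, 2.68, 1.15 and 12.7 in Six3KO, 3.48 and 18.1 in Six6KO, and 0.574, 0.58 and 0.238 in DKO. Col4a4, its partner, was at 28.8, 0.694 and 3.19 CPM in WT, 1.89, 0.48 and 15.6 in Six3KO, 3.02 and 22.4 in Six6KO, and 0.082, 0.248 and 0.317 in DKO. Both were high in the same 3 libraries, WT rh016, Six3KO rh026 and Six6KO rh020, and below 1 CPM in every DKO library, for 17 and 8 reads in all of DKO. Estimates of -4.13 ± 1.55 and -5.60 ± 1.85 had wide errors, and neither was called (adjusted p = 0.278 and 0.22). The same 3 libraries had the highest summed level of 7 pigment epithelium markers (1516, 1472 and 1666 CPM, against 17.5 to 795 in the other 8), and the part of pigment epithelium was not tested. Col15a1, a collagen of vessel and muscle basement membranes, was at 4.99 to 6.48 CPM in DKO and 0.809 to 39.2 in WT (-1.98 ± 1.26). In this class of 8 the median was -0.52, and none was called. At an unadjusted p under 0.05, 2 were lower, where 7.53% of all genes were.

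Type IX collagen decorates the surface of type II fibrils and has 3 chains, whose estimates differed in sign. Col9a1 (chr1:24177610-24252684) was at 116, 142 and 169 CPM in WT, 124, 121 and 159 in Six3KO, 139.6 and 100.03 in Six6KO, and 330.5, 278 and 174 in DKO. All 3 DKO libraries lay above each of the other 8 (highest of those, 169 CPM in WT rh024), for a difference from WT of 0.88 ± 0.25 that was not called (adjusted p = 0.134) and that DESeq2 called (adjusted p = 0.0167). DKO rh021 was close to the range of the others at 174 CPM. Col9a2 was at 38.8, 53.7 and 80.4 CPM in WT, 60.6, 53.8 and 40.1 in Six3KO, 66.9 and 61.0 in Six6KO, and 67.3, 51.8 and 63.4 in DKO, a difference of 0.08 ± 0.25 with the DKO values inside the WT range. Col9a3 was at 14.7, 4.74 and 3.57 CPM in WT, 4.81, 2.40 and 11.9 in Six3KO, 4.99 and 9.84 in Six6KO, and 2.13, 2.24 and 2.85 in DKO, with a difference of -1.68 ± 0.67 (adjusted p = 0.315). All 3 DKO libraries lay below all WT libraries but not below Six3KO rh012, and the highest values were in WT rh016 and Six3KO rh026. Per kilobase of annotated exon, a scale that allows genes to be compared, mean levels in WT and DKO were 28.0 and 51.4 CPM for Col9a1, 18.6 and 19.7 for Col9a2, and 1.99 and 0.625 for Col9a3. Their median was 0.08, and none was called.

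Markers of the ciliary margin, the rim of the optic cup, are given beside Col9a1. Their summed level over 11 genes was 1282, 1256 and 837 CPM in DKO, 327 to 695 in WT, 358 to 816 in Six3KO, and 622 and 652 in Six6KO. Zic1, a zinc finger transcription factor on that list, rose in DKO (265 to 379 CPM against 65.3 to 88.9 in WT, 2.08 ± 0.20, adjusted p = 0.00257), and Cdo1, a cysteine dioxygenase on it, fell (-1.93 ± 0.39, adjusted p = 0.0496). The other 9 were not called, and 3 of the 11 estimates lay below 0. Of all genes, 0.639% were called lower and 0.655% higher. At an unadjusted p under 0.05, 2 were lower and 3 higher, where 7.53% and 5.47% of all genes were. On the mean log2 score, set to 0 at the WT mean, the DKO libraries stood at 0.58, 0.53 and 0.08, inside the WT range of -1.28 to 0.72. Within DKO, rh021 had the lowest level both of Col9a1 and of these markers. Six3KO rh026 had the highest score of all libraries, 0.96, and a summed marker level of 816 CPM, with Col9a1 at 159 CPM. The part of the margin in the Col9a1 values was not tested.

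RefSeq lists 2 starts for Col9a1, 17593 bases apart (windows chr1:24177360-24177659 and chr1:24194953-24195252, plus strand), the downstream one giving the short form of the chain known from the eye. They are shown because gene-level counts cannot tell which was used in DKO. Of TATAAA (complement TTTATA) and CCAAT, neither lies in the upstream window and CCAAT lies once in the downstream one, in capitals.
Col9a1 upstream promoter: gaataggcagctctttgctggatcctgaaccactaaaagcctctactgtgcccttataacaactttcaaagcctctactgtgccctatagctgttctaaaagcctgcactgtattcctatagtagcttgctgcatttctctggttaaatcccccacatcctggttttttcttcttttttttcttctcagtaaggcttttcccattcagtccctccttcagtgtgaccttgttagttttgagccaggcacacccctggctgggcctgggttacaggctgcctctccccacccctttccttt
Col9a1 downstream promoter: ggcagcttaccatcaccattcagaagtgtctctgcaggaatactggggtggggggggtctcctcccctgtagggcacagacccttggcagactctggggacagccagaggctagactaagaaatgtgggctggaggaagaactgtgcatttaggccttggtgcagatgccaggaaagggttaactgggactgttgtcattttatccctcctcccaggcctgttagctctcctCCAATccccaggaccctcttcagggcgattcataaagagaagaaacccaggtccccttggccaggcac

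Type VI collagen, a beaded filament around mesenchymal and muscle cells, had estimates below 0 in DKO for all 3 chains. Col6a3 was at 106, 9.48 and 285 CPM in WT, 119, 52.8 and 289 in Six3KO, 197 and 93.1 in Six6KO, and 2.21, 8.53 and 4.12 in DKO. WT rh023, at 9.48 CPM, lay just above the DKO libraries and far below the other WT libraries. Col6a1 was at 44.1, 20.8 and 101 CPM in WT, 53.7, 24.3 and 117 in Six3KO, 80.4 and 40.2 in Six6KO, and 8.44, 13.5001 and 8.64 in DKO. Estimates against WT were -4.75 ± 1.19 for Col6a3, -3.03 ± 0.94 for Col6a2 and -2.44 ± 0.69 for Col6a1, with adjusted p of 0.108, 0.183 and 0.141. The 3 genes had a median of -3.03 and none was called.

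FACIT collagens of connective tissue and type VIII collagen had low values in WT rh023 and Six3KO rh012 as well as in DKO. Col14a1, which binds fibrils in dermis and tendon, was at 93.8, 2.66 and 30.3 CPM in WT, 51.6, 8.64 and 184 in Six3KO, 60.9 and 40.4 in Six6KO, and 1.48, 6.46 and 2.38 in DKO. Col16a1 was at 17.3, 3.58 and 24.8 CPM in WT, 24.2, 4.70 and 51.6 in Six3KO, 29.1 and 9.95 in Six6KO, and 1.07, 2.32 and 1.27 in DKO. For both, WT rh023 was at or near the DKO level, and Six3KO rh026 was highest of all 11. Their differences from WT were -3.63 ± 1.34 and -3.29 ± 0.98, and the class of 5 had a median of -3.29 with none called. Col8a2, a chain of the hexagonal lattice under the corneal endothelium, was at 68.1, 1.73 and 102 CPM in WT, 44.3, 6.14 and 89.7 in Six3KO, 48.0 and 71.2 in Six6KO, and 1.80, 1.49 and 2.38 in DKO. Col8a1 was at 235, 3.58 and 60.8 CPM in WT, 31.3, 4.22 and 131 in Six3KO, 37.1 and 141 in Six6KO, and 9.26, 12.7 and 10.9 in DKO. WT rh023 lay inside the DKO range for Col8a2 and below it for Col8a1, so that the groups overlapped. Col8a1 was highest in the 3 libraries with the most pigment epithelium RNA. The estimates of -4.91 ± 1.35 and -3.19 ± 1.41 were not called (adjusted p = 0.133 and 0.38).

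Transmembrane collagens included Col13a1 (chr10:61838236-61979108), a transmembrane collagen of cell adhesion sites and the neuromuscular junction. Col13a1 was at 2.50, 1.27 and 1.02 CPM in WT, 4.68, 2.69 and 8.07 in Six3KO, 4.87 and 4.71 in Six6KO, and 0.164, 0.248 and 0.476 in DKO. All 5 single-mutant libraries lay above all 3 WT libraries, and all 3 DKO libraries lay below them. Col13a1 fell in DKO against Six3KO by 4.06 ± 0.59 on the log2 scale (16.7-fold lower, adjusted p = 0.022) and against Six6KO by 3.96 ± 0.62 (15.6-fold lower, adjusted p = 0.0397). Against WT it was -2.41 ± 0.59 in DKO (adjusted p = 0.0959), 1.65 ± 0.51 in Six3KO (adjusted p = 1) and 1.55 ± 0.55 in Six6KO (adjusted p = 0.991). These levels are low, with 11 reads over the 3 DKO libraries, 51 in WT, 185 in Six3KO and 86 in Six6KO. Calls were lost in 3 of 17 alternative fits against Six3KO (adjusted p up to 0.141) and in 8 of 17 against Six6KO (up to 0.231), at estimates of -4.57 to -3.19 and -4.46 to -2.87. Leaving out DKO library rh010 or rh011 ended both calls, and leaving out Six3KO rh006, either Six6KO library, WT rh023 or WT rh024 ended the call against Six6KO. Col17a1, the hemidesmosome collagen of epithelia, was at 42.9, 3.24 and 18.5 CPM in WT, 22.9, 7.87 and 56.8 in Six3KO, 23.1 and 13.1 in Six6KO, and 1.07, 5.05 and 3.57 in DKO, lowest in DKO and WT rh023 (-2.74 ± 0.99, adjusted p = 0.259). Of 9 epithelial markers of the surface ectoderm, 9 had estimates below 0 in DKO against WT. Among them 1 was called, Grhl3, an epidermal transcription factor (-2.81 ± 0.44, adjusted p = 0.0236), where 0.639% of all genes were called lower. The summed level of these markers was 18.5 to 51.1 CPM in DKO, 49.0 in rh023, 46.0 in Six3KO rh012 and 141 to 442 in the other 6 libraries. The part of surface ectoderm was not tested.

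The Col13a1 promoter (RefSeq, GRCm38.p6, chr10:61979059-61979358, minus strand) is shown as that of the gene called against both single mutants, and holds TATAAA once, in capitals. That motif occurs in 13.6% of all promoters of this length and 17.1% of those of these genes.
Col13a1 promoter: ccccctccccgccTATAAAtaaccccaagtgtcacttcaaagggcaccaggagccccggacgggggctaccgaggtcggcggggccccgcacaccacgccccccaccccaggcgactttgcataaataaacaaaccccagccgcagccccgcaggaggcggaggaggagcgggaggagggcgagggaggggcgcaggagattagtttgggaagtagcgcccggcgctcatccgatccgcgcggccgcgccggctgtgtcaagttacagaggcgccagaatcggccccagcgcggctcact

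Col7a1, the anchoring fibril collagen beneath epithelia, was at 12.7, 2.54 and 43.6 CPM in WT, 21.4, 8.06 and 30.0 in Six3KO, 20.5 and 5.99 in Six6KO, and 3.85, 5.30 and 5.07 in DKO. Col26a1 was at 39.0, 5.09 and 47.9 CPM in WT, 23.6, 8.06 and 78.4 in Six3KO, 58.6 and 45.5 in Six6KO, and 6.39, 13.003 and 7.21 in DKO. For both, WT rh023 was the lowest of all 11 libraries, and differences of -2.04 ± 0.89 and -1.79 ± 0.89 were not called.

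All 13 matrix genes that are no collagens had estimates below 0 in DKO against WT, with a median of -2.77, and none was called. Among proteins that bind cells or modulate adhesion, Postn (periostin) was at 203, 27.8 and 61.7 CPM in WT, 53.5, 11.8 and 215 in Six3KO, 72.6 and 189.7 in Six6KO, and 0.984, 6.38 and 4.28 in DKO. DKO libraries lay below all others, for -4.65 ± 1.23 against WT (adjusted p = 0.124). Tnc (tenascin C) was at 37.7, 1.16 and 4.84 CPM in WT, 5.41, 1.54 and 57.3 in Six3KO, 34.7 and 34.1 in Six6KO, and 0.328, 4.31 and 1.27 in DKO, where WT rh023 and Six3KO rh012 lay inside the DKO range (-2.91 ± 1.55). Fn1 (fibronectin), which seeds collagen fibrils on the cell surface, was at 489, 354 and 658 CPM in WT, 478, 336 and 1268 in Six3KO, 1187 and 514 in Six6KO, and 285, 274 and 296 in DKO. All 3 DKO libraries lay below every other, with a difference from WT of -0.81 ± 0.48 (adjusted p = 0.564). Sparc, a collagen-binding glycoprotein, was within the WT range in DKO at 233 to 305 CPM (-0.13 ± 0.28).

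Small leucine-rich proteoglycans, which coat collagen fibrils, had the lowest class median of those with 3 or more genes, at -4.25. Lum (lumican) was at 268, 9.83 and 165 CPM in WT, 101, 12.8 and 323 in Six3KO, 131 and 215 in Six6KO, and 2.95, 4.56 and 3.33 in DKO. Dcn (decorin) was at 122, 7.40 and 33.3 CPM in WT, 40.0, 4.90 and 134 in Six3KO, 48.8 and 67.6 in Six6KO, and 1.31, 3.64 and 3.57 in DKO. In both, the DKO libraries lay below all others, WT rh023 and Six3KO rh012 came next, and the differences were -5.35 ± 1.38 and -4.25 ± 1.29 (adjusted p = 0.117 and 0.172). Bgn (biglycan) was at 3.56 to 4.60 CPM in DKO and 1.27 in WT rh023, which overlapped, with -3.18 ± 1.21.

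Microfibril genes, which make or bind the elastic microfibrils, had a median of -0.35. Fbln2 (fibulin 2) was at 38.4, 7.75 and 52.8 CPM in WT, 26.9, 9.60 and 71.5 in Six3KO, 46.9 and 34.7 in Six6KO, and 2.54, 5.22 and 6.66 in DKO. Fbln1 was at 84.9, 47.8 and 104 CPM in WT, 62.3, 35.7 and 116 in Six3KO, 107 and 85.5 in Six6KO, and 25.2, 22.6 and 33.1 in DKO. Both had every DKO library below every other, with -2.77 ± 0.84 and -1.55 ± 0.42 (adjusted p = 0.172 and 0.126). The fibrillins Fbn1 and Fbn2 and the microfibril-associated Mfap4 stayed within the WT range in DKO, at -0.15 ± 0.52, -0.14 ± 0.31 and -0.35 ± 0.45. Lox, which crosslinks collagen and elastin, was at 68.2, 1.73 and 25.6 CPM in WT, 33.2, 4.32 and 215 in Six3KO, 98.04 and 32.1 in Six6KO, and 0.656, 3.23 and 1.43 in DKO, with -4.18 ± 1.59 against WT (adjusted p = 0.288). WT rh023 lay inside the DKO range, and Six3KO rh026 was the highest library.

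Per kilobase of exon, a mean level was compared between genes. In WT the highest means were those of Sparc (78.4 CPM per kilobase), Lum (60.3), Fbn2 (53.7), Col4a1 (52.1), Col4a2 (43.9), Fn1 (42.8) and Col1a1 (40.2). In DKO they were those of Sparc (71.9), Col9a1 (51.4), Fbn2 (48.8), Col18a1 (35.2), Col4a2 (35.1), Col2a1 (31.9) and Col4a1 (31.5), with Lum at 1.48 and Col1a1 at 1.77. Together the 50 genes took 0.322% to 0.353% of reads in DKO, 0.308% in WT rh023, 0.416% in Six3KO rh012 and 0.539% to 1.23% in the other 6 libraries.

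**Figure D3:**
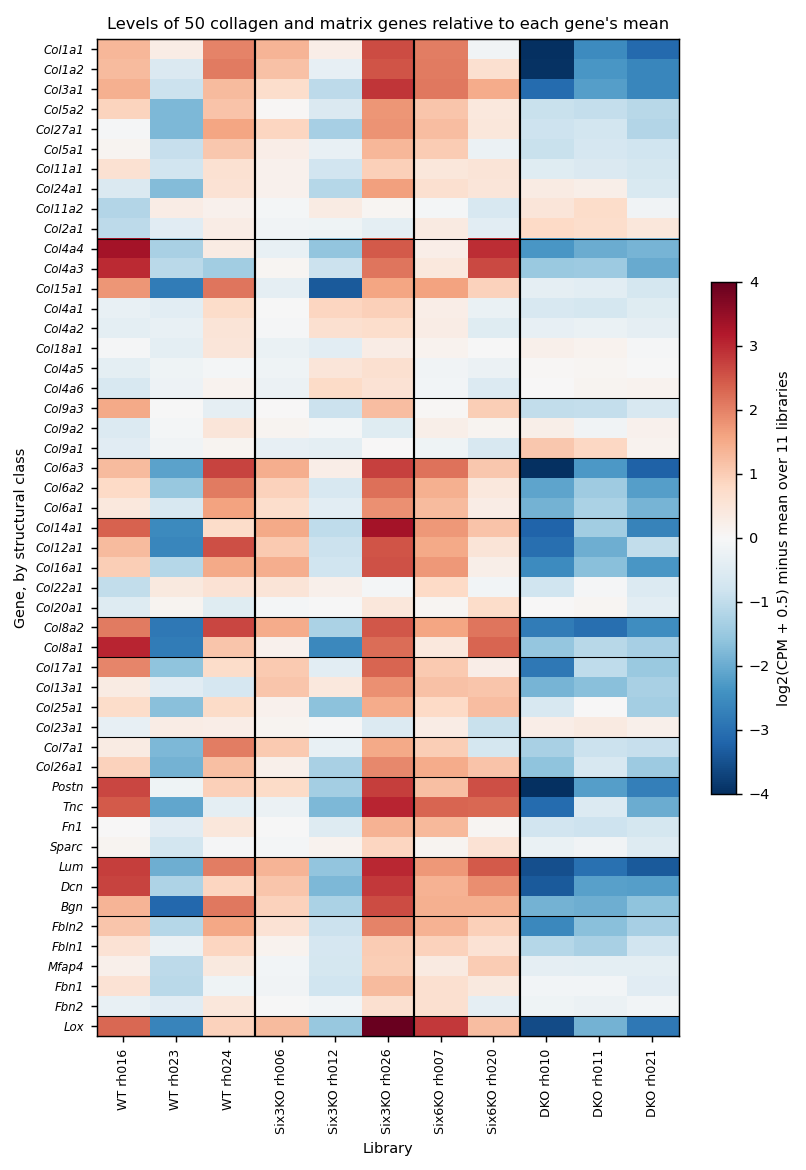
Level of each of the 50 genes (rows, by class) in each of the 11 libraries (columns), as log2(CPM + 0.5) minus the gene's mean over the libraries; red is above and blue below that mean. WT rh023 and Six3KO rh012 share much of the blue of the DKO columns, and Six3KO rh026 is the reddest column.

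Spread between libraries of 1 genotype was wide for these genes. The highest and lowest WT library differed by a median of 4.91-fold over the 50 genes, against 1.39-fold over all genes, and Six3KO libraries by 5.07-fold against 1.26-fold. Between the 2 Six6KO libraries the median was 1.59-fold (1.26-fold over all genes), and in DKO it was 1.45-fold (1.18-fold). The low and high libraries were the same for most genes. WT rh023 was the lowest WT library for 37 of the 50, and Six3KO rh026 was the highest Six3KO library for 44 and the highest of all 11 for 31. Among WT libraries the class medians ran from 2.06-fold (type IX) and 2.07-fold (basement membrane) to 26.0-fold (leucine-rich proteoglycans), 30.8-fold (Lox alone) and 51.3-fold (type VIII).

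Class means of the fibrillar collagens, basement membrane collagens and other matrix genes were lowest in the 5 libraries with mesenchyme scores below 0, unlike those of type IX. For the 13 matrix genes other than collagens, mean log2 levels relative to the WT mean were -2.20, -1.52 and -1.73 in DKO, -1.52 in WT rh023 and -1.25 in Six3KO rh012, the 5 libraries with scores below 0. They were 0.17 to 1.77 in the other 6. Fibrillar collagens had -1.43, -1.01 and -1.41 in DKO, -1.003 in rh023 and -0.68 in rh012, against 0.08 to 1.33. Basement membrane collagens had -0.72, -0.67 and -0.77 in DKO, -0.93 in rh023 and -0.54 in rh012, against -0.27 (Six3KO rh006) to 1.07. Type IX chains stayed between -0.50 and 0.19 in every library. These means and scores share libraries and depth, and are given as a description.

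**Figure D4:**
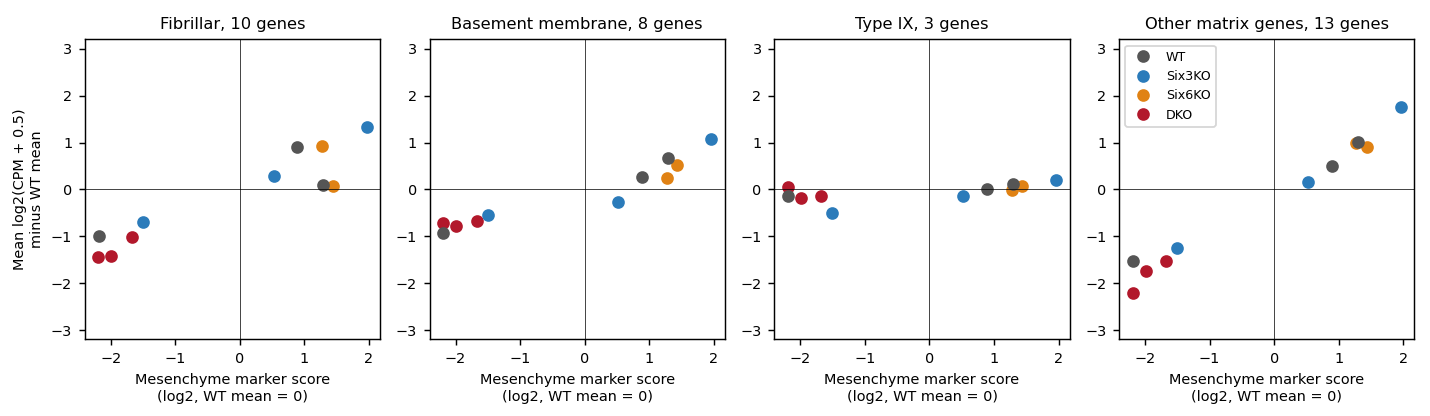
Mean log2(CPM + 0.5) of 4 groups of genes minus its WT mean (y) against the periocular mesenchyme score (x, log2, WT mean = 0); each point is 1 of 11 libraries, coloured by genotype. DKO libraries, WT rh023 and Six3KO rh012 sit at scores of -2.19 to -1.50 and at the low end for the fibrillar and other matrix genes, while type IX stays near 0.

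With the mesenchyme score in the fit as a covariate, the median difference of the 50 genes between DKO and WT moved from -1.73 to -0.05, and 28 rather than 40 estimates lay below 0. The estimates of 16 genes changed sign, 14 of them to above 0, and the median of the fibrillar collagens became 0.20. The highest estimates in that fit were those of Col15a1 (2.23 ± 0.57, adjusted p = 0.0712) and Col24a1 (1.93 ± 0.50, adjusted p = 0.0732), and Col25a1, Tnc and Col8a1 stood at 1.14, 1.13 and 1.11. Score and genotype overlap in part, since 3 of the 5 libraries with scores below 0 are DKO. Every DKO library had a score below 0 and both Six6KO libraries scores above 0 (1.28 and 1.44). The fit therefore cannot fully tell score from genotype. In that fit 4 genes were called, all lower (1.36% of all genes were called lower, 1.49% higher): Col1a1 (-3.38 ± 0.66, adjusted p = 0.0346), Col1a2 (-2.40 ± 0.53, adjusted p = 0.0467), Col3a1 (-1.55 ± 0.35, adjusted p = 0.0468) and Lum (-1.77 ± 0.19, adjusted p = 0.00523). Col9a1 (0.95 ± 0.29) and Col2a1 (0.91 ± 0.39) were close to their values without the covariate and were not called. Against Six3KO the same fit called 3 genes (0.534% of all genes lower, 0.752% higher). Col13a1 (-3.19 ± 0.56, adjusted p = 0.0332) and Lum (-1.31 ± 0.20, adjusted p = 0.0181) were lower, and Col15a1 was higher at 3.96 ± 0.61 (adjusted p = 0.0192), where the fit without the covariate gave -0.91 ± 1.24. Measured Col15a1 levels in Six3KO were 6.51, 0.384 (4 reads) and 26.5 CPM. The DKO values of 4.99 to 6.48 CPM lay inside that range.

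In the single mutants no matrix gene was called. In Six3KO against WT, 0 of 50 were called by edgeR and 0 by DESeq2, where edgeR called 0% of all genes lower and 0.00752% higher. The median was 0.23, 35 of 50 estimates lay above 0, and 3 were higher at an unadjusted p under 0.05 (Col13a1, Col4a5 and Col4a6), where 2.29% of all genes were, and none was lower (1.2% of all genes). DESeq2 called 0.0223% of all genes lower and 0.112% higher. Without overlap, 1 gene, Col13a1, lay higher (3.1% of all genes) and none lower (3.7%). Col4a5 was at 94.8, 110.3 and 118 CPM in WT and 111, 176 and 194 in Six3KO (0.58 ± 0.18), the 2 upper values being those of the 2 Six3KO libraries with the most lens RNA. Lens-rich Six6KO rh020 had Col4a5 at 107 CPM, below the 113 CPM of Six6KO rh007. The part of lens in the Col4a5 values was not tested. In Six6KO against WT, 0 were called by either tool, as were 0% of all genes in edgeR. Its median was 0.23, with 36 of 50 above 0 and 2 higher at an unadjusted p under 0.05 (Col13a1 and Col20a1), where 2.26% of all genes were, and none lower (1.63%). DESeq2 called 0% of all genes lower and 0.0149% higher. Col3a1 had both Six6KO libraries above all WT libraries (0.92 ± 0.95, adjusted p = 0.991), as did Col13a1 and Col25a1, the latter a neuronal transmembrane collagen, 3 genes where 7.2% of all genes did so, and no gene lay below (5.85%).

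Against the single mutants, with which DKO shares either Cre or the Six6 null alleles, the median differences were close to that against WT. In DKO against Six3KO, 1 gene was called, Col13a1 (lower), where 0.256% of all genes were called lower and 0.331% higher. The median was -1.82, 44 of 50 estimates lay below 0, and 29 genes were lower and 2 higher at an unadjusted p under 0.05 (8.49% and 4.75% of all genes). Col1a1 differed by -4.87 ± 0.88 (adjusted p = 0.0521) and Lum by -5.33 ± 1.37 (adjusted p = 0.133). In DKO against Six6KO, Col13a1 was again the 1 gene called (0.0677% of all genes lower, 0.166% higher), with a median of -1.84. There 43 of 50 estimates lay below 0, and 24 genes were lower and 1 higher at an unadjusted p under 0.05 (8.57% and 6.24% of all genes). A fit on these groups alone called 29 of the 50 lower against Six6KO and none higher (4.04% and 1.13% of all genes). DESeq2 called 20 against Six3KO (19 lower and 1 higher, where 4.14% and 1.63% of all genes were) and 17 against Six6KO (16 lower and 1 higher, 2.7% and 2.29%). Col9a1 was 0.95 ± 0.25 against Six3KO and 1.12 ± 0.28 against Six6KO, and was not called in either. All 3 comparisons use the same DKO libraries.

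Whether DKO differed from WT by more or less than both single-mutant differences added up was tested as DKO minus Six3KO minus Six6KO plus WT, on the log2 scale. None of the 50 genes was called by edgeR (0% of all genes in either direction), and 20 lower and 1 higher (Col9a1) had an unadjusted p under 0.05, where 6.07% and 3.92% of all genes did. DESeq2 called 5, all lower (1.22% of all genes, with 0.566% higher). The median was -2.04. Col13a1 departed by -5.61 ± 0.80 (adjusted p = 0.14) and Col1a1 by -4.86 ± 1.14 (adjusted p = 0.336).

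Genes that make, anchor, bind or remodel collagen were taken from 4 lists. Of 27 measured genes of collagen biosynthesis, none was called in DKO against WT by edgeR, 3 were lower and 2 higher at an unadjusted p under 0.05, where all genes gave 7.53% lower and 5.47% higher. The 2 with the smallest p were Pcolce, an enhancer of procollagen C-proteinase, at 27.4, 7.40 and 26.6 CPM in WT and 3.61, 4.64 and 4.28 in DKO (-2.29 ± 0.61), and Adamts2, the procollagen N-proteinase, at 6.25, 2.31 and 2.17 CPM in WT and at most 0.238 in DKO (-4.93 ± 1.42). WT rh023 was the lowest WT library for Pcolce, above all DKO libraries. Of 17 basement membrane partners, 1 fell, where 0.639% of all genes were called lower. This was Lama1, the laminin chain of the embryonic retinal basement membrane (-1.46 ± 0.24, adjusted p = 0.0274). It was at 81.4, 124 and 145 CPM in WT and 32.4, 40.5 and 54.8 in DKO. In WT rh023 Lama1 stood at 124 CPM, and 16 of the 17 estimates lay below 0. The part of mesenchyme in these values was not tested.

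Of 8 collagen receptors none was called by edgeR, and 2 were lower at an unadjusted p under 0.05, where 7.53% of all genes were. Itga11, an integrin of fibroblasts, was at 6.33, 0 and 10.96 CPM in WT and 0.574, 0.580 and 0 in DKO, and Ddr2, a receptor tyrosine kinase for fibrillar collagen, at 69.9, 1.62 and 83.5 CPM in WT and 4.26, 7.21 and 3.33 in DKO (-3.39 ± 1.30). Each was as low in WT rh023 as in DKO. Of 14 genes of matrix turnover 1 fell, where 0.639% of all genes were called lower. This was Adamts4, a proteoglycan-cleaving protease (-1.60 ± 0.26, adjusted p = 0.0263). It was at 24.4, 31.7 and 22.2 CPM in WT and 8.69, 6.29 and 10.9 in DKO, highest in rh023 among the WT libraries. The part of mesenchyme in these values was not tested. The median estimates of the 4 lists, in the order given, were -0.15, -1.09, -0.55 and -0.52.

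Markers of pericytes, macrophages and red blood cells gave no call in DKO against WT by edgeR. Of 5 pericyte markers 4 had estimates below 0 (1 lower at an unadjusted p under 0.05), of 8 macrophage markers none did (5 higher), and of 4 tested red blood cell markers 4 did (none under that p). Over all genes, 7.53% were lower and 5.47% higher at that p.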

How the data were processed

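Ribosome-depleted total RNA of E13.5 mouse retina pairs was sequenced, and the authors deposited the reads of each gene and library as raw counts in 1 table. The submitters' processing notes name Trim Galore 0.3.7, TopHat2 2.0.13, HTSeq 0.6.1, Cufflinks 2.2.1, Cuffdiff and the mm10 build. Strand use and annotation in counting were not given in the sources used here. Library columns name the genotype and a library, so each was placed in its group and to no single sample. The counts were filtered with filterByExpr (minimum count 10), TMM-normalised and fitted for all 11 libraries in 1 robust quasi-likelihood model in edgeR 4.0.16 (limma 3.58.1, R 4.3.3), with 6 comparisons and Benjamini-Hochberg adjustment over 13292 genes. Standard errors are the estimate divided by the square root of the test's F. The code was tested on simulated data. Depth was 7807744 to 16403191 reads per library, and pairs of replicates varied beyond sampling of reads (chi-square divided by its degrees of freedom, 9.72 to 77.3).

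Values in every library are given for genes called in any comparison, for the 2 genes of each class whose p was smallest between DKO and WT, and for Col2a1, Col4a1, Col4a2, Col9a1, Col9a2, Col9a3, Col11a1, Col18a1 and Fn1. From the lists of related genes, those called are named, otherwise the 2 with the smallest p. Genes and lists were chosen with earlier results of these data known. Alternatives were RLE size factors, no TMM, no filter, DESeq2 1.42.0, the compared groups alone, each library left out, and a mesenchyme marker covariate. Positions and exon lengths came from GENCODE vM21 (GRCm38), where 16 of the 50 genes overlap exons of another gene, 13 of them on the opposite strand, and promoters from RefSeq (GRCm38.p6). CPM per kilobase divides by the union of annotated exons.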

Additional observations from a re-analysis of the deposited data

How the results depend on the processing

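Of the 50 genes, 1 was called in DKO against WT, 1 against Six3KO and 1 against Six6KO, none in the other comparisons. DESeq2 called 20, 20 and 17 in those 3 and 5 for the departure from additivity. The mesenchyme covariate gave 4, 3 and 0, and the compared groups alone gave 29 against Six6KO. Leaving out 1 library gave 0 to 3 against WT (3 without Six3KO rh026), 0 to 3 against Six3KO (3 without Six3KO rh012 or WT rh023) and 0 to 1 against Six6KO. Causes were not tested. RLE factors, no TMM and no filter left all these counts within 1.5 times. In the single mutants every alternative gave 0. Over all genes, fits with 1 library left out called 20 to 279 against WT, 16 to 93 against Six3KO and 1 to 77 against Six6KO. Without Six3KO rh026, 279 of 13290 genes were called against WT, where the main fit called 172 of 13292. Against Six3KO, 53 of 13289 were called without Six3KO rh012 and 86 of 13298 without WT rh023, where the main fit called 78.

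The median difference of the 50 genes in DKO against WT was -0.055 with the covariate and -2.16 to -1.31 with 1 library left out. With the covariate it was 0.20 for fibrillar collagens and 0.0030 for other matrix genes, and for type IX it ran from -0.14 (without WT rh016) to 0.40 (without WT rh024). With the covariate 16 of the 50 estimates changed sign against WT, among them, of the genes given in every library, Col11a1 (0.14), Col9a2 (-0.015), Col8a1 (1.11), Col26a1 (0.52), Tnc (1.13) and Lox (0.0030). They also turned for Col4a2 without WT rh024 (0.032, over a range of -0.49 to 0.032), Col9a2 without WT rh016 (-0.14), and Col18a1 without DKO rh010 (-0.011), WT rh016 (-0.011) or WT rh023 (-0.14, over a range of -0.14 to 0.31). For Col9a2 that range was -0.14 to 0.40. Genes with every DKO library below every WT library numbered 17 to 36 with 1 library left out (36 without WT rh023), and above, 3 to 6 (6 without WT rh024). Of all genes, 9.84% to 17.4% lay below in those settings (17.4% without WT rh023). Above lay 10.8% to 18.1% (13.8% without WT rh024). Low counts limit Col13a1, Col4a3 and Col4a4. Calls of list genes outside the 50 (Lama1, Adamts4, Grhl3, Zic1 and Cdo1) were not followed through these fits. Over all genes in DKO against WT, 85 were called lower and 87 higher. Without DKO rh010 these numbers were 4 and 16, and without DKO rh011 they were 6 and 19. No paired analysis was possible because the columns carry library names and no replicate numbers.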
